A study of Mus musculus with 12 samples.

Results

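Glutathione transferases were followed in C2C12 cells, an established line of mouse skeletal myoblasts that leave the cell cycle and form myotubes once serum is withdrawn. The set held 10 genes: Gsta1, Gsta2, Gsta3 and Gsta4 of the alpha class, Gstm1 and Gstm2 of the mu class, Gstp1 of the pi class, and the membrane enzymes Mgst1, Mgst2 and Mgst3. Every probe carrying one of these symbols was taken, which gave 18 of the 45281 probes on the array. Of these, 17 were among the 17565 probes with a detection p under 0.05 on at least 2 of 12 arrays, and all 10 genes kept at least 1 probe. The genes were chosen from measured values of these arrays, the intensities of Gsta1, Gsta2, Gstm2 and Mgst2, which varied between the transfected groups. Differences that involve a transfected group are therefore given as descriptions with no test. The difference between the wild-type groups, which the choice did not use, was tested.

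Glutathione transferases join reduced glutathione to electrophiles such as lipid aldehydes, quinones and drugs, which makes them water-soluble and ready for export. The cytosolic classes are dimers of related subunits, whereas the microsomal enzymes form a separate family of integral membrane proteins that also takes part in leukotriene synthesis. Many genes of the cytosolic classes are known to respond to oxidants through NRF2, a transcription factor that binds antioxidant response elements.

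The study used 6 groups of 2 arrays, all of the same cell line. Cells growing in 15% serum received an siRNA pool, were moved to a differentiation medium (ITS) 36 h later, and were harvested after 18 h in it. The siBRG1 group was given siRNA against BRG1 (gene symbol Smarca4), an ATPase of the SWI/SNF chromatin remodelling complex. The siBAF60b and siBAF60c groups were given siRNA against BAF60b (Smarcd2) and BAF60c (Smarcd3), alternative subunits of that complex, and the siScramble group a scrambled sequence. Wild-type cells in differentiation medium form the DM group and wild-type cells in growth medium the GM group. Both wild-type groups carry the transfection entry "control", and the labels do not say whether a transfection reagent was added to them. Knockdown was partial. Beside siScramble, Smarca4 signal was 53.0% in siBRG1, Smarcd2 was 34.1% in siBAF60b and Smarcd3 was 52.3% in siBAF60c, in each case with both knockdown arrays below both siScramble arrays.

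Between 12724 and 15414 probes were detected per array, and median scanner signal ran from 119 to 149. The arrays of a pair correlated at 0.977 to 0.986 (Pearson, 17565 probes), apart from the DM pair at 0.932, in which 3457 probes lay over 1 log2 unit apart, against 234 to 892 in the other pairs. Results that rest on 1 DM array are therefore given without each of them. The arrays lay on 3 BeadChips, of which the first held replicate 1 of the 4 transfected groups, and siBRG1 shared only that chip with siScramble. DM and GM lay together on both the second and the third. Of 7 measured skeletal muscle markers, 6 were detected on at least 10 of the 12 arrays and Myf5 on 2. Their summed linear intensity was 9892 to 11714 in siBRG1, 14777 to 18408 in siBAF60b, 11108 to 18582 in siBAF60c, 18415 to 23239 in siScramble, 24799 to 40013 in DM and 4380 to 4894 in GM. Of the markers of other cell types, Adipoq (adipocytes), Adgre1 and Lyz2 (macrophages) and Pecam1 (endothelium) were detected on 0 arrays. The hepatocyte markers Hnf4a, Ttr, Serpina1a and Cyp2e1 were detected on 6, 2, 2 and 1 arrays, with all 4 on siBAF60b replicate 1. Kdr and Cdh5 (endothelium) were detected on 5 and 1. For Pparg and Lpl (adipocytes) the counts were 11 and 10, and for Csf1r and Cd14 (macrophages) 10 and 12. Summed linear intensity of the hepatocyte markers that passed the filter, Ttr and Hnf4a, was 59.1 to 95.8 over all arrays, and that of the endothelial marker Kdr was 27.1 to 51.4. Nothing in the labels says that replicates were separate cultures, so the p-values below reflect only how far these arrays spread, and that spread may be technical. The precision is limited by 2 arrays per group. In bulk RNA, fewer cells that express a gene and less RNA per cell cannot be told apart.

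Values below are background-corrected, quantile-normalised log2 intensities, and probes of a gene are numbered by falling mean intensity. A level of one probe is not set against that of another. A probe not detected on either array of a group has only a bound there, written as "at least N-fold": the mean of the group in which it was detected over, in the other group, the higher of each array's lowest detected signal and the probe's own value. Such bounds hold on this background-corrected scale, and the Gsta1 and Gsta2 differences between DM and GM were smaller without background correction. Close paralogs may share signal. Gsta1 and Gsta2 are the nearest pair in the set, and the probe sequences were not used here.

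The upstream sequences of Gsta1 and Gsta2 are shown because the probes of these genes carried the main differences in this set. Each is the 250 bases before the RefSeq transcription start in GRCm38.p6, at chr9:78230419-78230668 on the plus strand for Gsta1 and chr9:78347146-78347395 on the minus strand for Gsta2, written 5′ to 3′. The capitals mark the longest run that the 2 sequences share, 29 bases.
Gsta1: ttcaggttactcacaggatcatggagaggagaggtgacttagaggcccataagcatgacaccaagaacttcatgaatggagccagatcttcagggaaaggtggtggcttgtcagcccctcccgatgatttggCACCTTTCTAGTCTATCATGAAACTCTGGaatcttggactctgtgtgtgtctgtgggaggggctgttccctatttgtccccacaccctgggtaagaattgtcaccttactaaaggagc
Gsta2: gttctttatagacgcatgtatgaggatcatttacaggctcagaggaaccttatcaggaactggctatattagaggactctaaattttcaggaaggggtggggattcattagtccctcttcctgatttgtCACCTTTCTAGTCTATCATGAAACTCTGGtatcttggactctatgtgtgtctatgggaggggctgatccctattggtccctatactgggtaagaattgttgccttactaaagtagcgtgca
The shared run lay at positions -118 to -90 from the start in Gsta1 and -121 to -93 in Gsta2. The pair was 70.5% identical over 261 aligned columns. Upstream sequences were at hand for 9 of the 10 genes, Gsta4 being the exception, and the other pairs were 39.3% to 51.2% identical with longest shared runs of 7 to 13 bases. The core of the antioxidant response element, TGACNNNGC, occurred on either strand in 10.2% of 32851 RefSeq promoter windows of the same length, and the AP-1 site TGANTCA in 6.75%. The 2 motifs overlapped in 128 windows. Neither was found in the windows of Gsta1, Gsta2, Gstm1, Gstm2 or Mgst3. TGACNNNGC occurred in Gsta3 at -121 and in 1 of 2 windows of Mgst1 at -56, and TGANTCA in Gstp1 at -74 and Mgst2 at -52. These matches describe the letters of the windows only, and bases farther upstream were not searched.

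DM was compared with GM to ask which of these genes differed between wild-type cells in differentiation medium and in growth medium. Gsta1 and Gsta2 were lower in DM. All 3 Gsta1 probes and the Gsta2 probe passed the test (limma, Benjamini-Hochberg adjusted p under 0.05 over 17565 probes), and no probe of the other 8 genes did. That is 4 of 17 probes lower, where 7.85% of all tested probes were called lower, and 0 of 17 higher, where 7.42% were called higher. With only the brightest probe of each gene, Gsta1 and Gsta2 were called lower, where 7.7% of 10346 genes were. In either direction 15.3% of probes were called (2682, with 5214 at an unadjusted p under 0.05). The median difference over the 17 probes was -0.73, against -0.00 over all tested probes. The arrays of DM and GM did not overlap for 7 member probes that were lower and 4 that were higher in DM, where 26.2% and 24.8% of all tested probes had this pattern.

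**Figure D1:**
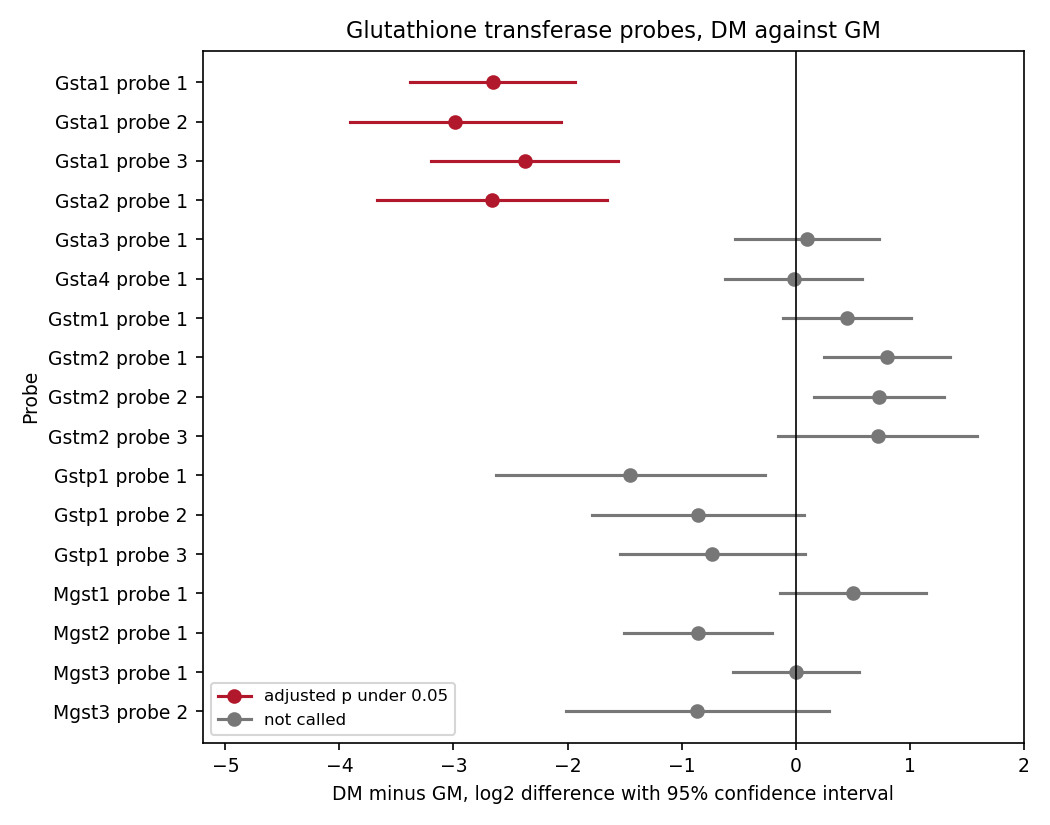
Difference in log2 intensity, DM minus GM, for the 17 tested glutathione transferase probes, with points for the fitted difference and bars for its 95% confidence interval. Red marks the 4 probes with an adjusted p under 0.05, the 3 Gsta1 probes and Gsta2, which lie between -2.98 and -2.37. Gsta1 probes 2 and 3 were undetected in DM and Mgst1 in GM, so their points are fitted values and not bounds.

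Gsta1 encodes an alpha-class subunit that conjugates glutathione and also reduces organic hydroperoxides. Its brightest probe (ILMN_2979237) read 8.25 and 8.52 in siBRG1 cells, 9.17 and 9.42 in siBAF60b cells, 9.57 and 10.20 in siBAF60c cells, 11.38 and 12.12 in siScramble cells, 6.65 and 6.08 in DM, and 9.14 and 8.90 in GM. The groups did not overlap at any step of the order siScramble, siBAF60c, siBAF60b, GM, siBRG1, DM. Between DM and GM the difference was -2.66 (SE 0.335, adjusted p 1.47e-04), with -2.49 on the second BeadChip and -2.82 on the third. It was -1.66 with the authors' deposited values.

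The other Gsta1 probes followed a like course. Probe 2 (ILMN_1231997) read 6.73 and 7.25 in siBRG1 cells, 7.54 and 7.80 in siBAF60b cells, 7.85 and 9.25 in siBAF60c cells, 9.996 and 10.813 in siScramble cells, 4.74 and 5.36 in DM, and 7.90 and 8.17 in GM. Probe 3 (ILMN_2657636) read 7.35 and 6.99 in siBRG1 cells, 7.54 and 8.16 in siBAF60b cells, 8.11 and 9.22 in siBAF60c cells, 10.002 and 10.007 in siScramble cells, 5.10 and 4.50 in DM, and 7.43 and 6.93 in GM. Both were undetected on the 2 DM arrays, and siScramble stood highest on both. In the middle of the order siBAF60c overlapped GM on probe 2, while on probe 3 siBAF60c overlapped siBAF60b and GM overlapped siBRG1. Both fell in DM, probe 2 to at least 5.77-fold below GM (fitted difference -2.98, SE 0.430, adjusted p 4.14e-04) and probe 3 to at least 3.19-fold below (-2.37, SE 0.381, adjusted p 9.93e-04). With the authors' deposited values the differences were -1.40 and -0.998 (adjusted p 0.0146 and 0.0246), smaller than these bounds.

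Gsta2 is the closest relative of Gsta1 in the set and encodes a second alpha-class subunit of the same kind. Its probe (ILMN_1248849) read 7.93 and 7.96 in siBRG1 cells, 8.28 and 8.28 in siBAF60b cells, 8.08 and 9.73 in siBAF60c cells, 10.52 and 10.96 in siScramble cells, 5.94 and 4.75 in DM, and 7.94 and 8.06 in GM. It was detected on 1 of the 2 DM arrays. As for Gsta1, both siScramble arrays were above the other 10 and both DM arrays below the other 10. Over all tested probes these patterns held for 1% and 5.33%. Gsta2 fell by 2.66 in DM relative to GM (SE 0.468, adjusted p 0.00192). Without DM replicate 2 the difference was -2.07 (adjusted p 0.0163) and the second BeadChip gave -2.00. DM replicate 2, the array in which Gsta2 was undetected, gives only a bound: DM was at least 5.56-fold below GM without DM replicate 1 (adjusted p 3.07e-04), and at least 5.81-fold below on the third BeadChip. With the authors' deposited values the difference was -1.27 (adjusted p 0.0265).

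**Figure D2:**
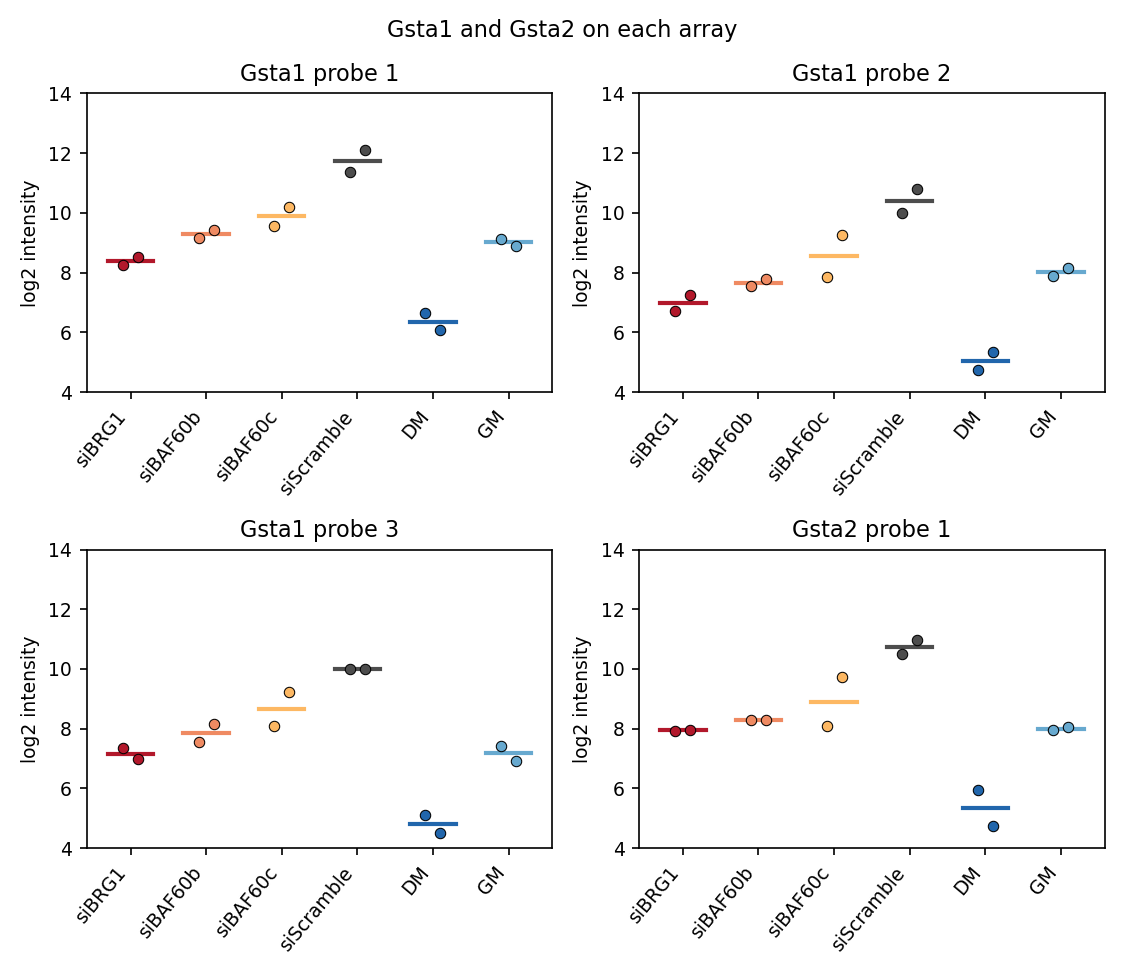
Log2 intensity of the 3 Gsta1 probes and the Gsta2 probe on each of 12 arrays, by group, with points for arrays and lines for group means. In each panel both siScramble arrays are highest and both DM arrays lowest, and the 3 knockdown groups lie between them.

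Over the 12 arrays, Gsta1 probe 1 correlated with Gsta1 probes 2 and 3 at 0.98 each and with Gsta2 at 0.98 (Pearson, a description over arrays that share groups). Whether the Gsta1 and Gsta2 probes share signal was not tested.

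The adipocyte markers that passed the filter, Pparg and Lpl, moved with Gsta1 and Gsta2 in DM: their summed linear intensity was 81.8 to 88.0 in DM and 200.2 to 653.8 in the other 5 groups. The macrophage markers that passed, Csf1r and Cd14, summed to 125.9 to 128.5 in DM and 138.3 to 204.1 in the other 5 groups. Of these, Cd14 was lower in DM (6.49 and 6.37) than in GM (7.09 and 7.29). Csf1r was not, at 5.28 and 5.44 in DM, where it was undetected, and 5.20 and 5.35 in GM. The summed linear intensity of the skeletal muscle markers moved the other way between DM and GM, as given above. Des, Myog, Ckm, Acta1 and Tnnt3 were each higher in DM without overlap, with Ckm undetected in GM. The Myod1 arrays of DM and GM overlapped, and Myf5 was undetected in both groups. The part of these markers in the Gsta1 and Gsta2 values was not tested.

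The remaining alpha-class genes had other courses. Gsta3, an alpha-class subunit, was detected on 2 arrays, siBAF60b replicate 2 and siScramble replicate 2, and its readings ran from 4.46 to 5.54 over all 12, with neighbouring groups overlapping at every step of their order. Gsta4 encodes the alpha-class enzyme best known for conjugating 4-hydroxynonenal, an aldehyde from lipid peroxidation. It read 11.73 and 11.81 in siBRG1 cells, 11.45 and 11.46 in siBAF60b cells, 11.24 and 11.80 in siBAF60c cells, 11.27 and 11.28 in siScramble cells, 10.34 and 10.16 in DM, and 10.04 and 10.50 in GM. All 8 transfected arrays were above all 4 wild-type arrays, a pattern shown by 1.66% of tested probes. DM and GM overlapped, with a difference of -0.02 (SE 0.28, adjusted p 0.978).

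In the mu class, Gstm2 encodes a subunit whose human counterpart is known from muscle. Its brightest probe (ILMN_2624854) read 9.29 and 9.51 in siBRG1 cells, 11.06 and 11.06 in siBAF60b cells, 11.42 and 11.21 in siBAF60c cells, 10.83 and 10.90 in siScramble cells, 11.17 and 10.88 in DM, and 10.32 and 10.13 in GM. On this probe and on the other 2 Gstm2 probes, both siBRG1 arrays were below the other 10, a pattern shown by 1.51% of all tested probes. Probe 2 read 9.20 and 9.42 in siBRG1 and 10.98 and 10.99 in siScramble cells, and probe 3 read 6.10 and 6.36 in siBRG1 and 7.63 and 8.19 in siScramble. The 3 probes correlated at 0.91 to 0.985 over the 12 arrays.

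Between DM and GM, Gstm2 was not called. The differences were 0.80 for probe 1 (SE 0.256, adjusted p 0.0503), 0.73 for probe 2 (adjusted p 0.0788) and 0.72 for probe 3 (adjusted p 0.258). DM lay above GM without overlap on probes 1 and 2. Without DM replicate 2 all 3 probes passed, with differences of 0.95, 0.98 and 1.38 and adjusted p of 0.0460, 0.0372 and 0.0286. Without DM replicate 1 none passed, at 0.66, 0.49 and 0.06 (adjusted p 0.0905, 0.199 and 0.929). Probe 1 passed with the BeadChip as a block (adjusted p 0.0476). With the authors' deposited values probes 1 and 2 passed (0.74 and 0.68, adjusted p 0.00576 and 0.016) and probe 3 did not (0.46, adjusted p 0.288). With each array scaled by its median in place of quantile normalisation, the 3 differences were -0.03, -0.09 and -0.09, while the median of all probes shifted to -0.52.

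Gstm1 encodes another mu-class subunit. It read 10.06 and 10.36 in siBRG1 cells, 10.83 and 10.71 in siBAF60b cells, 10.58 and 10.45 in siBAF60c cells, 10.40 and 10.41 in siScramble cells, 10.54 and 10.18 in DM, and 9.96 and 9.85 in GM. GM was lowest without overlap, and the group means of the others ran from 10.21 to 10.77. The DM difference from GM was 0.45 (adjusted p 0.268).

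Gstp1 encodes the pi-class enzyme, which is widely expressed outside the liver. Probe 1 read 13.57 and 13.77 in siBRG1 cells, 13.55 and 13.42 in siBAF60b cells, 13.12 and 13.53 in siBAF60c cells, 13.22 and 13.51 in siScramble cells, 13.30 and 10.81 in DM, and 13.58 and 13.44 in GM. The 1 low array was DM replicate 2, and every other array lay between 13.12 and 13.77. Probe 2 showed the same split, with 11.34 and 9.60 in DM and 11.46 and 11.19 in GM, whereas the dimmer probe 3 read 6.25 and 6.73 in DM and 7.34 and 7.10 in GM. The differences of DM from GM were -1.45 (adjusted p 0.0919), -0.86 (adjusted p 0.203) and -0.73 (adjusted p 0.217). Probe 1 gave -2.69 without DM replicate 1 and -0.20 without DM replicate 2, with adjusted p of 2.88e-05 and 0.735. Probe 2 gave -1.73 and 0.02, with adjusted p of 9.06e-04 and 0.985. With median scaling probes 1 and 3 were called (-2.18 and -1.52, adjusted p 0.0473 and 0.0310).

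Among the membrane enzymes, Mgst2 is known in human to make leukotriene C4 as well as to conjugate glutathione. Its probe (ILMN_2613832) read 7.33 and 7.28 in siBRG1 cells, 9.07 and 9.15 in siBAF60b cells, 8.24 and 9.06 in siBAF60c cells, 9.01 and 9.19 in siScramble cells, 7.62 and 7.23 in DM, and 8.36 and 8.20 in GM. The siBRG1 and DM arrays overlapped at the low end, and the other 4 groups lay above both. Between DM and GM the difference was -0.86 (SE 0.301, adjusted p 0.0702), which was called without DM replicate 1 (-1.06, adjusted p 0.0293) and not without DM replicate 2 (-0.66, adjusted p 0.248). It was also called with the BeadChip as a block (adjusted p 0.0464) and among probes detected on all arrays (adjusted p 0.0454).

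Mgst3 encodes a membrane enzyme with glutathione-dependent peroxidase activity. Probe 1 read 11.74 and 11.79 in siBRG1 cells, 12.16 and 11.98 in siBAF60b cells, 12.13 and 12.43 in siBAF60c cells, 12.39 and 12.34 in siScramble cells, 10.89 and 10.58 in DM, and 10.71 and 10.76 in GM. Probe 2 read 10.21 and 10.17 in siBRG1 cells, 10.57 and 10.39 in siBAF60b cells, 10.67 and 10.95 in siBAF60c cells, 11.01 and 10.42 in siScramble cells, 9.62 and 7.25 in DM, and 9.40 and 9.20 in GM. On both probes all 8 transfected arrays were above all 4 wild-type arrays, as for Gsta4. The wild-type groups did not differ beyond their spread on probe 1 (difference 0.00, adjusted p 1). On probe 2 the difference was -0.86 (adjusted p 0.309), and it was -2.05 without DM replicate 1, where it was called (adjusted p 3.45e-04), and 0.33 without DM replicate 2 (adjusted p 0.581).

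Mgst1 encodes the main microsomal enzyme of liver. Its 2 probes were at the edge of detection: probe 1 was detected on 6 of the 12 arrays and read 4.88 to 5.73, and probe 2 was detected only on siBAF60b replicate 2 and was not tested. Probe 1 was undetected on both GM arrays and stood at least 1.26-fold higher in DM, where 1 array detected it (adjusted p 0.286).

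**Figure D3:**
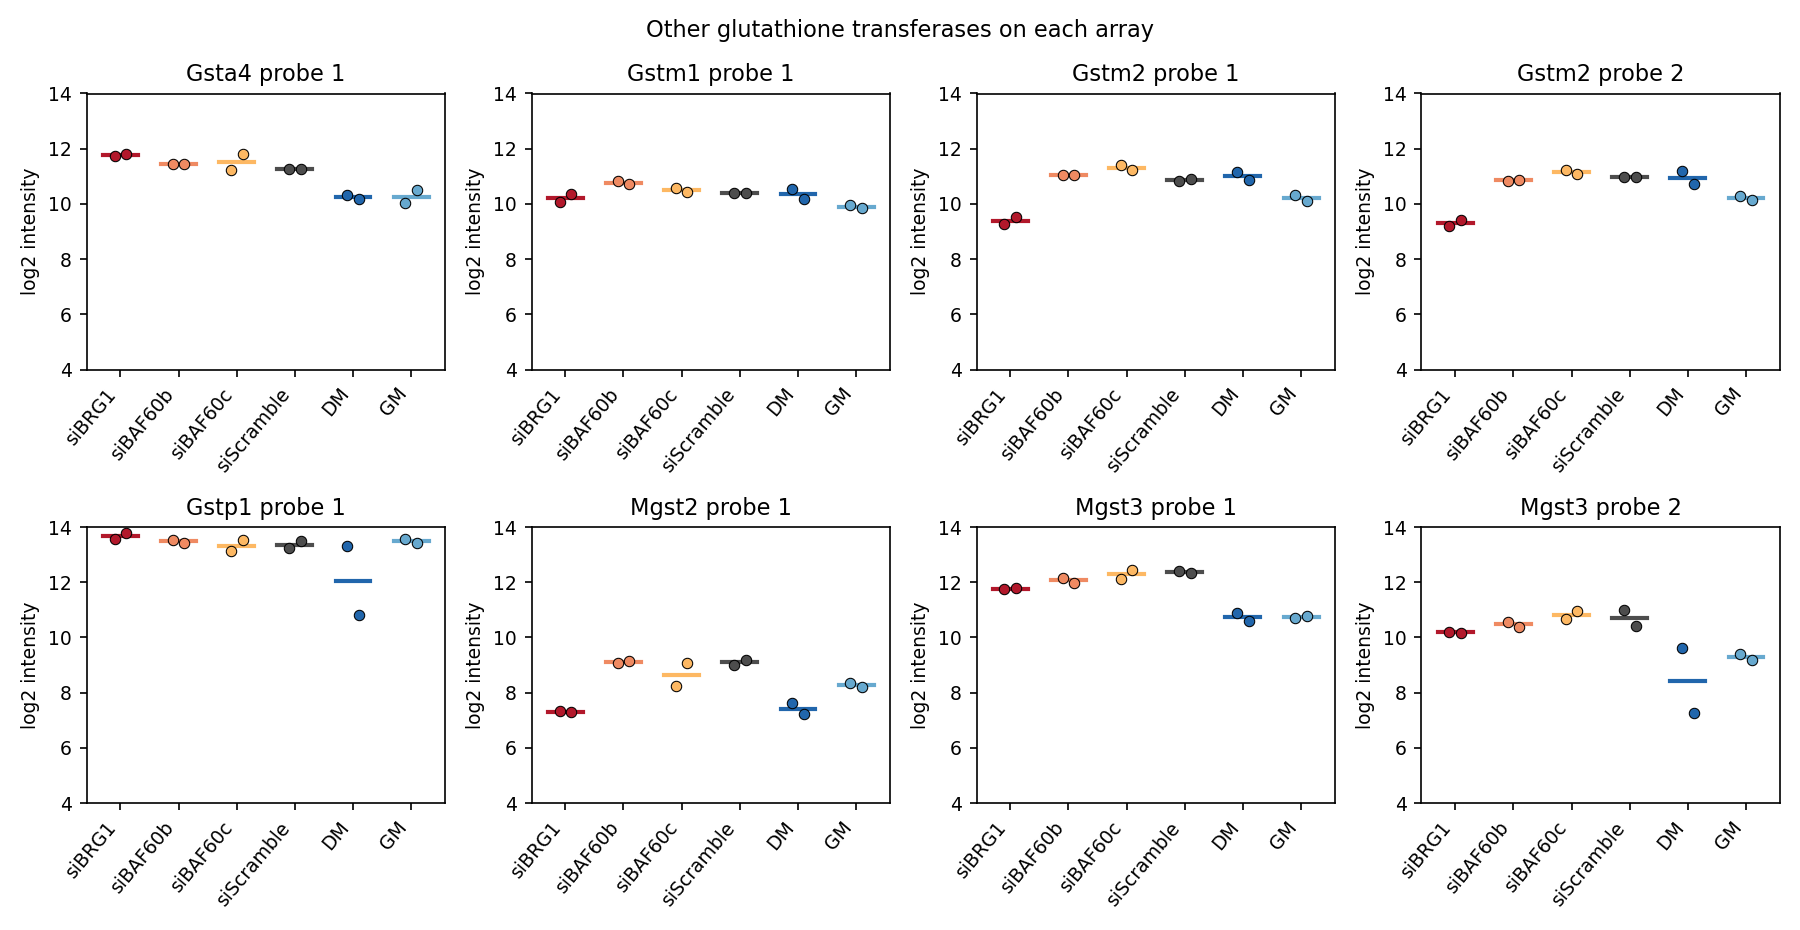
Log2 intensity of 8 probes of Gsta4, Gstm1, Gstm2, Gstp1, Mgst2 and Mgst3 on each of 12 arrays, by group, with points for arrays and lines for group means. Gstm2 is lowest in siBRG1, Gsta4 and Mgst3 are higher on the 8 transfected than on the 4 wild-type arrays, and DM replicate 2 stands apart for Gstp1 and for Mgst3 probe 2.

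The knockdown groups were set beside siScramble to describe how each member stood after partial knockdown of 1 subunit transcript. The 3 comparisons share the siScramble arrays, whose Gsta1 and Gsta2 readings were the highest of the series, and these are the contrasts behind the choice of genes. In siBRG1, 8 of 17 member probes were lower by at least 1 on the log2 scale, where 1.16% of all tested probes were, and 0 were higher by as much, where 1.12% were. They were the 3 Gsta1 probes (-3.37, -3.41 and -2.84, SE 0.335 to 0.430), Gsta2 (-2.80, SE 0.468), the 3 Gstm2 probes (-1.46, -1.68 and -1.68) and Mgst2 (-1.79, SE 0.301). Without background correction the third Gstm2 probe stood at -0.89, which left 7. With only the brightest probe of each gene, Gsta1, Gsta2, Gstm2 and Mgst2 were lower by at least 1, where 1.32% of all genes were. The siBRG1 and siScramble arrays did not overlap for 12 lower and 3 higher probes, against 19.6% and 21% of all tested probes.

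Within the first BeadChip, the only one with both groups, siBRG1 minus siScramble was -3.13, -3.27 and -2.66 for Gsta1, -2.59 for Gsta2, -1.54, -1.79 and -1.54 for Gstm2, and -1.68 for Mgst2. Gsta4 stood 0.49 higher in siBRG1, without overlap, and Mgst3 probe 1 stood 0.60 lower.

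In siBAF60b, 4 of 17 probes were lower by at least 1, where 0.359% of all tested probes were, and 0 were higher, where 0.279% were. The 4 were Gsta1 (-2.45, -2.74 and -2.15) and Gsta2 (-2.46). Gstm2 stood at 0.20, -0.12 and 0.03 from siScramble and Mgst2 at 0.01. In siBAF60c the same 4 probes were lower by at least 1 (0.643% of all tested probes) and 0 were higher (0.478%), with Gsta1 at -1.87, -1.85 and -1.34 and Gsta2 at -1.84. The siBAF60c arrays lay apart for Gsta2, whose difference was -1.01 without siBAF60c replicate 1 and -2.66 without replicate 2. Gsta1 probe 2 moved likewise, to -1.16 and -2.55, and probe 3 to -0.78 and -1.90. Gstm2 stood 0.45, 0.18 and 0.35 above siScramble in siBAF60c, and Mgst2 at -0.44.

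Cells given the scrambled siRNA were also set beside wild-type cells in the same medium. In siScramble, 9 of 17 member probes were higher than in DM by at least 1, where 5.06% of all tested probes were, and 0 were lower, where 3.26% were. Gsta1 probe 1 stood 5.39 higher (SE 0.335) and Gsta2 5.40 higher (SE 0.468), and Gsta1 probes 2 and 3 were at least 29.9-fold and at least 22.7-fold higher. The differences were smaller without background correction, at 3.33 for Gsta1 probe 2 and 3.54 for Gsta2. With the authors' deposited values Gsta1 probe 3 stood 3.10 higher. Both of these Gsta1 values are smaller than the bounds. Gsta4 (1.02), Mgst2 (1.67) and Mgst3 (1.63 and 2.27) were among the rest. On the second BeadChip, which held 1 array of each group, the differences were 5.47 for Gsta1 probe 1, 5.02 for Gsta2, 0.94 for Gsta4, 1.57 for Mgst2, and 1.45 and 0.79 for Mgst3, and Gsta1 probes 2 and 3 were at least 40.4-fold and at least 23.1-fold higher. Gstp1 probe 1 gave 1.31, which was 2.55 without DM replicate 1 and 0.06 without DM replicate 2, and Mgst3 probe 2 gave 3.46 and 1.09. Gstm1 (0.05) and Gstm2 (-0.16, 0.03 and 0.12) stood close to DM. Transfection and the handling that went with it cannot be told apart in this comparison.

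**Figure D4:**
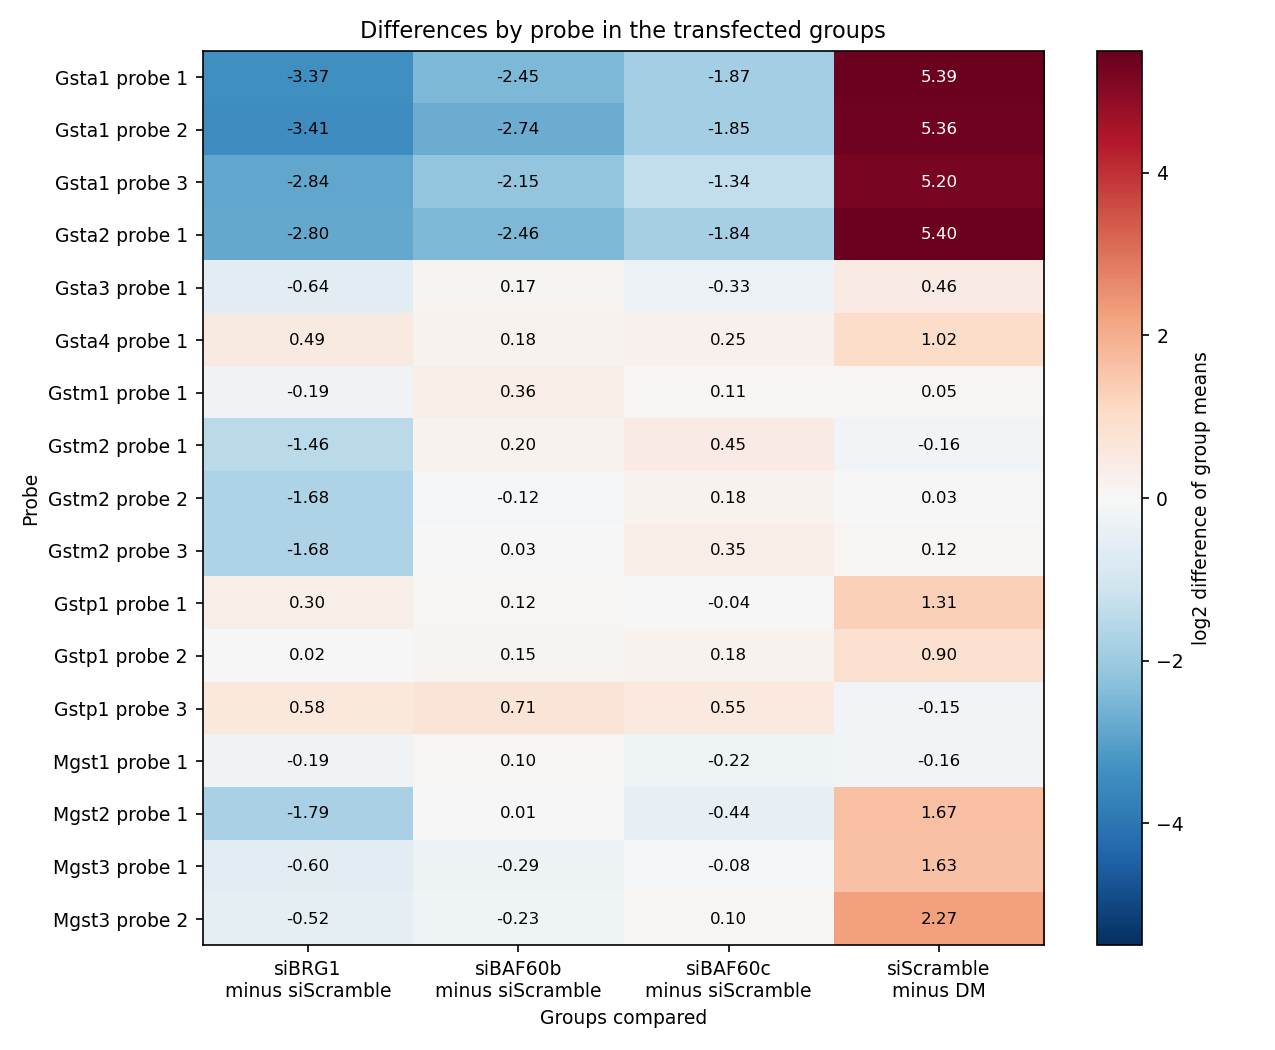
Difference in log2 intensity between group means for the 17 tested probes in 4 comparisons, printed in each cell and coloured blue for lower and red for higher in the first-named group. Gsta1 and Gsta2 are blue in all 3 knockdown columns, whereas Gstm2 and Mgst2 differ by at least 1 from siScramble in siBRG1 alone of the 3. The siScramble-against-DM cells of Gsta1 probes 2 and 3 are fitted values, as both were undetected in DM.

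For the brightest probe of Gsta1, Gstm2 and Mgst2, the 3 other genes with the most similar readings were listed (Pearson correlation over 12 arrays among 10336 genes, as a description of arrays that share groups). For Gsta1 they were the proliferin genes Prl2c4 (0.95), Prl2c2 (0.94) and Prl2c3 (0.93), close paralogs of each other that encode secreted proteins of the prolactin family. Prl2c4 averaged 8.58 in siBRG1, 8.98 in siBAF60b, 9.86 in siBAF60c, 11.14 in siScramble, 5.41 in DM and 9.43 in GM, so siScramble was again highest and DM lowest. For Gstm2 they were Hr, a nuclear corepressor gene (0.89), Plat, the gene of tissue plasminogen activator (0.88), and Camk2b, a calcium-dependent kinase gene (0.88). For Mgst2 they were Aldh1a3, a retinaldehyde dehydrogenase gene (0.90), Ctnnal1 (0.90) and Lrrfip1 (0.89). Camk2b was detected on 5 of the 12 arrays and Aldh1a3 on 3, so their readings lie largely at background.

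The wider pathway was followed in 5 lists, 1 brightest probe per gene, from the same fit. Over all 10346 genes, 9.08% were called higher and 7.7% lower in DM, with a median difference of 0.07. Of the other transferases and their relatives, 14 of 18 listed genes were tested, and 1 was called higher and 2 lower in DM (median 0.13). Gsto1, an omega-class thioltransferase, averaged 9.41 in DM and 11.69 in GM (difference -2.28, SE 0.406, adjusted p 0.00211). Gstcd, which encodes a protein with a transferase-like C-terminal domain, averaged 5.97 in DM and 8.16 in GM (-2.19, SE 0.284, adjusted p 1.83e-04). Alox5ap, the 5-lipoxygenase activating protein of the same membrane family as the Mgst enzymes, averaged 9.54 in DM and 8.03 in GM (1.51, adjusted p 0.00827).

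Of the genes for glutathione synthesis and recycling, 16 of 22 were tested, and 1 was called higher and 4 lower in DM (median -0.01). Gclm, the modifier subunit of the ligase that starts glutathione synthesis, averaged 7.64 in DM and 9.14 in GM (-1.50, adjusted p 0.00379). The other 3 that fell do not make glutathione: Chac1 (-1.33, adjusted p 0.00943) and Ggct (-1.92, adjusted p 0.0245) belong to its breakdown, and Glrx (-1.25, adjusted p 0.00856) is a glutaredoxin that uses it. Oplah, 5-oxoprolinase, was undetected in GM and was at least 2.27-fold higher in DM (adjusted p 0.0335). With the authors' deposited values its difference was 0.52 and without background correction 0.51, and neither was called (adjusted p 0.0738 and 0.0761).

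Of the glutathione peroxidases and other peroxide-removing enzymes, 16 of 19 were tested, with 1 called higher and 1 lower (median 0.10). Gpx3, a secreted peroxidase, averaged 8.91 in DM and 7.87 in GM (1.04, adjusted p 0.0309), and Gpx8, a peroxidase of the endoplasmic reticulum, averaged 9.95 in DM and 12.41 in GM (-2.46, adjusted p 0.0199). Without DM replicate 2 neither was called (0.65, adjusted p 0.179, and -0.98, adjusted p 0.0845).

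Of the NRF2 pathway genes, 27 of 31 were tested, with 2 called higher and 2 lower (median 0.06). Nqo1, a quinone reductase that is a well-known NRF2 target, read 5.53 and 4.80 in DM, where 1 array detected it, and 8.39 and 8.52 in GM (-3.29, SE 0.423, adjusted p 1.73e-04), and Gclm was the other that fell. Akr1b8, an aldo-keto reductase, averaged 10.30 in DM and 9.12 in GM (1.19, adjusted p 0.00825). Nfe2l1, a relative of NRF2, averaged 12.05 in DM and 10.59 in GM (1.47, adjusted p 0.0210). Nfe2l2, the gene of NRF2 itself and named here outside the rule for called genes, was not called (adjusted p 0.0588). It was detected on both GM arrays and on neither DM array, with DM at least 1.65-fold lower. Of the xenobiotic receptors and phase 1 enzymes, 7 of 13 were tested and 0 were called by limma at the adjusted threshold (median 0.25).

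Of these 13 called genes, Gstcd and Nqo1 passed in every alternative that fitted them. Their differences were smaller with the authors' deposited values, at -1.16 for Gstcd and -1.65 for Nqo1, as was that of Ggct (-0.93). They were also smaller without background correction, at -1.15, -1.65 and -0.94. Ggct, Oplah, Gpx3, Gpx8 and Nfe2l1 were lost without DM replicate 2 and also without either GM array. Without DM replicate 2 the differences of Ggct and Nfe2l1 were -0.75 and 0.69 (adjusted p 0.133 and 0.130), and Oplah had an adjusted p of 0.243. Without GM replicate 1 the adjusted p of Ggct, Oplah, Gpx3, Gpx8 and Nfe2l1 were 0.149, 0.138, 0.176, 0.0961 and 0.121, and without GM replicate 2 they ran from 0.0946 to 0.155. Alox5ap, Gclm, Chac1 and Glrx were lost without GM replicate 2 (adjusted p 0.102, 0.0566, 0.0906 and 0.0874), and Akr1b8 without GM replicate 1 (0.0781). With median scaling the 5 genes called higher were not called (adjusted p 0.137 to 0.761). Without the filter on dim probes Ggct, Oplah, Gpx8 and Nfe2l1 were lost (adjusted p 0.108, 0.0994, 0.106 and 0.0671). In a fit of DM and GM alone Gsto1 was lost (adjusted p 0.0691), as were the 10 other genes besides Gstcd and Nqo1.

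**Figure D5:**
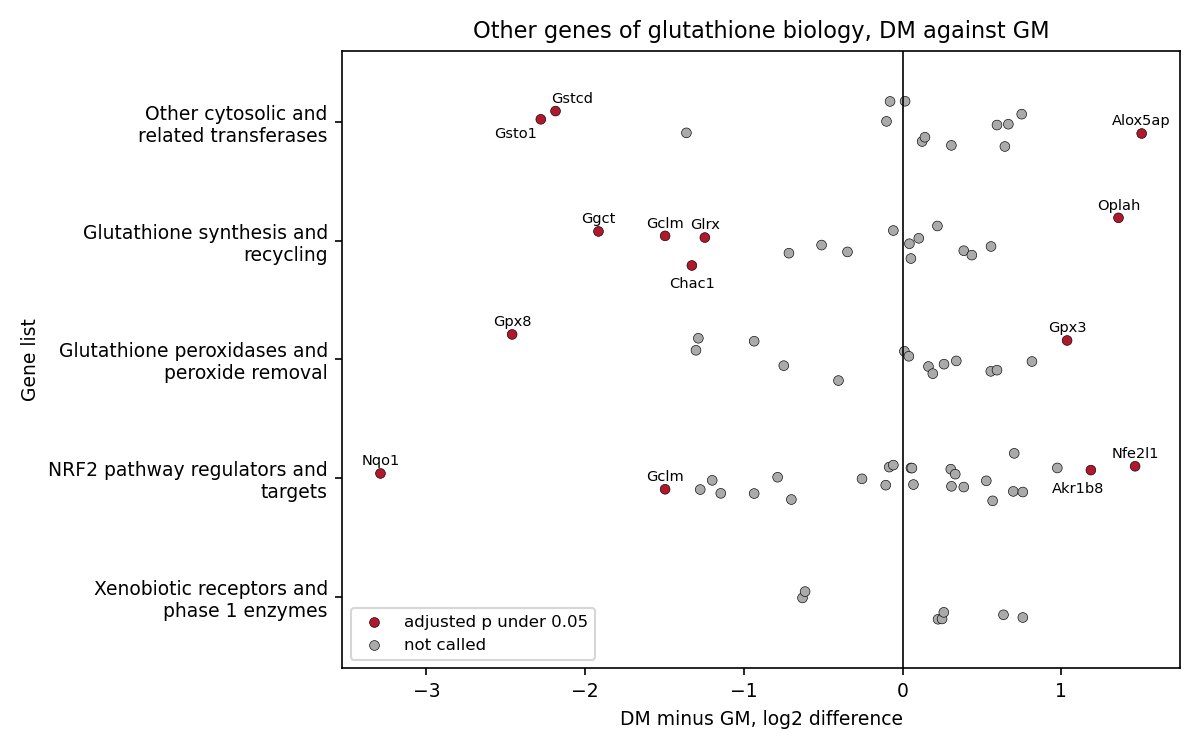
Difference in log2 intensity, DM minus GM, for the tested genes of 5 lists of glutathione biology, 1 point per gene, with red for an adjusted p under 0.05 and the gene named. Nqo1 has the lowest value, -3.29, and no gene of the xenobiotic list is red.

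Few of these pathway genes differed by at least 1 between a knockdown group and siScramble, and those named here were picked for that size. Gstk1, a kappa-class transferase, stood at -1.53 in siBRG1 and was the only one there, where 1.25% of all genes were higher and 1.32% lower by as much. In siBAF60b, Hmox1, heme oxygenase, stood at 1.50 and Ltc4s, leukotriene C4 synthase, at 1.17 (0.261% of all genes higher and 0.377% lower). Both read below the lowest detected signal on siScramble replicate 1. With arrays left out, a setting chosen after seeing the data, Hmox1 stood at 0.82 and Ltc4s at 0.74 without siScramble replicate 1. In siBAF60c, Aldh3a1, an aldehyde dehydrogenase, stood at -1.50 and Nqo1 at -1.01 (0.435% of all genes higher and 0.706% lower). For Nqo1 the siBAF60c and siScramble arrays overlapped, and leaving out 1 array gave -1.63 to -0.40. Beside DM, more genes differed by as much (4.12% of all genes higher and 3.97% lower by at least 1). Higher in siScramble were Nqo1 (2.98), Aldh3a1 (2.67), Gstk1 (2.06), Idh1 (1.72), Gpx1 (1.31), Gpx8 (1.19) and Gsto1 (1.04). Lower were Gpx3 (-1.71) and Nfe2l1 (-1.01). Those higher were 2 of 14 other transferases, 1 of 16 synthesis genes, 2 of 16 peroxide-removing enzymes and 2 of 27 NRF2 pathway genes. Nqo1 and Gstk1 were each detected on 1 DM array, and the Gpx8 arrays of siScramble and DM overlapped.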

How the data were processed

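The genes, lists and tests were chosen with earlier results of these data known. Total RNA (500 ng) of 12 samples was labelled as Cy3 cRNA and read on Illumina BeadChips, per the labels. The deposited scanner table holds, for each of 45281 probes, the linear intensity on every array with its detection p-value, per the file headers. The authors' deposited processed table holds 23165 of these as linear intensity with equal quantiles (column medians 163.9 to 164.0) and the scanner table's ranks (Spearman correlation 1), and the 22116 probes it leaves out were detected on 0 arrays. Its software and background setting are not given in the sources used here. Array annotation named 19589 probes by 1 gene, 8 by several and 3568 by none.

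The scanner values were background corrected from the detection p-values, quantile normalised and log2 transformed by neqc (offset 16, limma 3.58.1, R 4.3.3). The authors' deposited intensities on the log2 scale served as an alternative. The 17565 probes that 2 or more arrays detected (p under 0.05) entered the fit. All 6 groups entered 1 limma fit (6 residual and 7.44 prior degrees of freedom), with Benjamini-Hochberg adjustment over all kept probes, and the median SE of a difference was 0.32. An undetected group was bounded by the lowest detected signal of its arrays (5.20 to 5.53). All member probes were named, every called gene of a list (6 or fewer), and the 3 nearest genes of 3 members. On simulated data for DM against GM over 17565 probes, 87% of 100 changes of 2.5 and 10% of 100 changes of 1 were recovered, with 0 false calls. The simulation used independent noise and 1 spread per probe for all groups. It does not hold the wider spread of the DM pair, so these rates may not carry over to the measured arrays. Same-numbered arrays deviated together in 6 of 15 group pairs at a correlation over 0.1 (-0.02 to 0.32). Many same-numbered arrays also shared a BeadChip, so these values cannot say whether the numbers pair samples. The main fit used no pairing. Alternatives covered the values used, background correction, normalisation, filter, probes per gene, groups fitted, BeadChip, replicate block and each array left out. Motifs and alignments used RefSeq promoter windows.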

Additional observations from a re-analysis of the deposited data

How the results depend on the processing

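The 3 Gsta1 probes and Gsta2 were lower in DM and called in every alternative that fitted them, at adjusted p of at most 0.0122, 0.0146, 0.0246 and 0.0279. Their differences shrank without background correction, to -1.65, -1.39 and -1.01 for Gsta1 and -1.28 for Gsta2, and with the authors' values probe 3 of Gsta1 gave -0.998 and Gsta2 -1.27. The count of member probes called between DM and GM was 4, and 6 with the authors' values, without background correction, with median scaling, without the filter and with the BeadChip as a block. Over all probes these alternatives called 2804, 2818, 2358, 2284 and 3153, in that order, of 17565, or of 45281 without the filter. The member count was 5 with the replicate block, which called 3009 of all probes. Among probes detected on all arrays it was 4 of 12, where 2231 of 9441 probes were called. With 1 probe per gene it was 3 of 10, where 2010 of 10346 were called. Leaving out 1 array gave 4 to 8, with 8 without DM replicate 1 and 7 without DM replicate 2. Over all probes the count was 2682, 619 in a fit of the 2 groups alone, which has fewer arrays, and 1090 to 5415 when 1 array was left out (5415 without DM replicate 1, 1253 without GM replicate 1 and 1090 without GM replicate 2). The fit of the 2 groups alone also takes its spread from DM and GM only, where the main fit pools all 6 groups. The SE of Gstm2 probe 1 was 0.331 there and 0.256 in the main fit, and that of Gsta1 probe 2 was 0.366 and 0.430. Median scaling called 275 higher and 2083 lower where quantile normalisation called 1304 and 1378. Gstm2 probe 1 was called under 8 alternatives, replicate block included (adjusted p 0.0431). Whether the replicate numbers pair the samples was not settled. The count that differed from siScramble by at least 1 in either direction was 8 in siBRG1, all lower. It was 7 with the authors' values and without background correction, where Gstm2 probe 3 stood at -0.90 and -0.89. It was 5 among probes detected on all arrays, 4 with 1 probe per gene and 8 to 9 with an array left out. The 9 came without siScramble replicate 1, where Gstp1 probe 3 was higher in siBRG1 by 1.04. In siBAF60b and siBAF60c this count was 4 each, 1 each among probes detected on all arrays and 2 each with 1 probe per gene, since fewer member probes enter. With an array left out it was 4 to 5 in siBAF60b and 3 to 4 in siBAF60c. Without siScramble replicate 1 the 5 in siBAF60b again included Gstp1 probe 3, higher by 1.16. The siScramble count above DM was 9, 8 with the authors' values, without background correction and with median scaling, 6 among probes detected on all arrays and with 1 probe per gene, and 7 to 10 with an array left out. For the comparisons that involve a transfected group, the share of all probes past 1 was counted in the main fit only. Where no reason is stated, the cause was not tested. Probes near the detection floor, those of Gsta3 and Mgst1 and of Gsta1 in DM, have compressed differences.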
